A study of Sus scrofa with 20 samples.

Results

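The genes described here are the Wnt ligands, the frizzled receptors and 2 families of secreted Wnt inhibitors, the secreted frizzled-related proteins (SFRP) and the dickkopf proteins (DKK), in backfat and liver of the pig. They were chosen by symbol: every gene of the count table whose Ensembl symbol starts with WNT, FZD or DKK and a number, or with SFRP. The rule found 36 of 31907 genes, which were 18 Wnt genes, 10 frizzled genes, 4 SFRP genes and 4 DKK genes. WNT4 has no symbol in the reference used for gene names, so it is not among them. The rule reads symbols and no measured value.

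Nanchukmacdon is a Korean pig breed, and the RNA-seq libraries were made from backfat, the fat layer under the skin, and from liver of boars. The labels call the animals WT and Normal and give an age of 22 months for every sample, while the methods of the study state a higher average age. There were 5 libraries per tissue and 10 in all, each tissue was sequenced as a bulk sample, and no animal was treated. Libraries are named here by tissue and by the animal number in the column names (65, 67, 69, 71 and 72), since the replicate numbers of the labels could not be matched to these numbers.

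Wnt proteins are secreted, lipid-modified signals. They bind frizzled receptors together with LRP5 or LRP6, and this stabilises beta-catenin, which enters the nucleus and acts with TCF and LEF factors. Other Wnt proteins act through ROR receptors and planar cell polarity proteins without beta-catenin. SFRP proteins carry a frizzled-like domain and bind Wnt proteins outside the cell, and most DKK proteins bind LRP5 and LRP6. In fat, Wnt signals are known to restrain the formation of adipocytes, and in liver they are known to maintain the gene expression of hepatocytes around the central vein.

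The libraries held between 45157114 and 61772737 counts in backfat and between 43820042 and 53768601 in liver. Marker genes were summed in CPM, the counts of a gene scaled to a common library total. All 8 hepatocyte markers were called higher in liver, with sums of 23858 to 92743 CPM against 202 to 719 in backfat, and all 7 adipocyte markers were called higher in backfat, with sums of 11578 to 19268 against 12.6 to 20.3. Some libraries stood apart. In liver 67 the 13 mitochondrial genes held 44.5% of counts, against 6.38% to 20.2% in the other 9 libraries, its hepatocyte sum was the lowest of the liver, and it held 123 CPM of skeletal muscle markers and 1315 CPM of red cell markers. Backfat 69 held the 719 CPM of hepatocyte markers, where the other backfat libraries held 202 to 295. Most of these sums was APOA1, at 591 CPM in backfat 69 and 198 to 291 in the others. All 8 markers were highest in backfat 69 among the backfat libraries, with ALB at 44.6 CPM against at most 0.479 and AMBP at 15.3 against at most 0.304. Backfat 65 held 588 CPM of skeletal muscle markers, where the others held 13.4 to 192. In bulk tissue, fewer cells of a type and less RNA per cell cannot be told apart.

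The comparison asked which of these genes differ between the tissues. In the text below, CPM of members and pathway genes are scaled with TMM factors and compare a gene between libraries. CPM of marker genes remain scaled to library totals alone, so they are not on the scale of the member values. Values per library are given in the order of boars 65, 67, 69, 71 and 72. The log2 fold change is backfat minus liver from edgeR's quasi-likelihood test, with its standard error (SE), and FDR is the Benjamini-Hochberg adjusted p over the 16275 genes tested. A gene was called when its FDR was at most 0.05 and its log2 fold change at least 2 in either direction. Values are means ± SD over 5 libraries per tissue.

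Every SFRP gene was called higher in backfat, while the Wnt and frizzled genes were split between the tissues. Of the 36 members, 26 passed the filter on low counts. Among these, 10 were called higher in backfat and 3 higher in liver, where 11.1% and 11.2% of all genes tested were called (22.3% in either direction). The filter retains a gene that is high in 1 tissue and near 0 in the other, so these counts describe the tested members and not all 36. Backfat was called higher for WNT3, WNT5B, WNT11, FZD2, FZD4, SFRP1, SFRP2, SFRP4, SFRP5 and DKK2. Liver was called higher for WNT7B, WNT9B and FZD5. By FDR alone, 14 members were higher in backfat and 5 in liver, against 28.0% and 27.0% of all genes tested (55.0% in either direction). Every backfat library lay above every liver library for 11 members and every liver library above every backfat library for 3, against 22.9% and 19.7% of all genes tested. The median log2 fold change was 1.28 over the 26 members, also with WNT7B at its bound, and 0.00 over all genes tested.

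**Figure D1:**
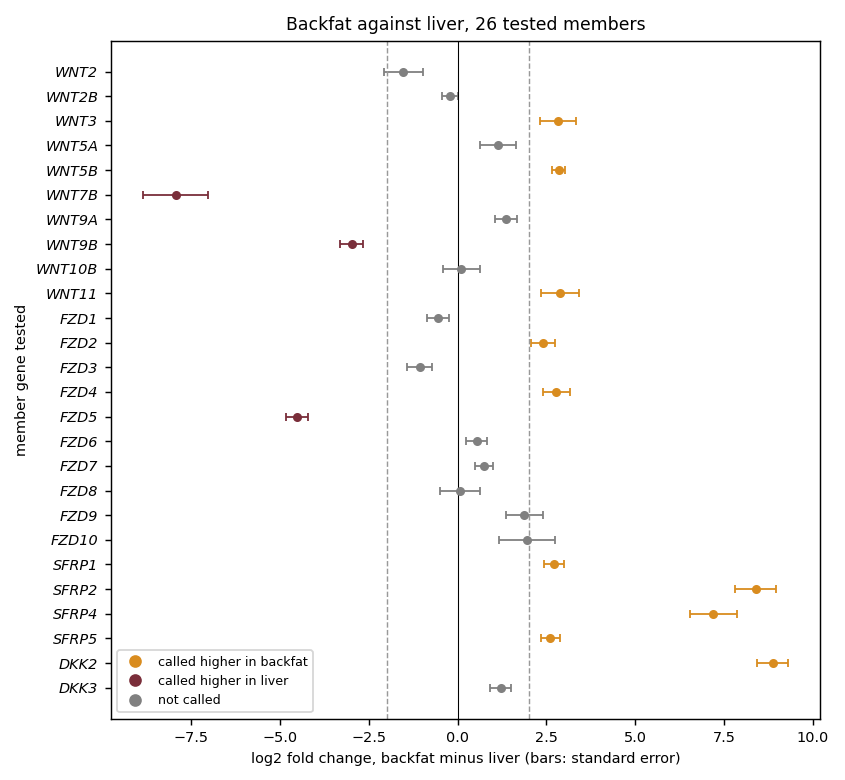
Log2 fold change, backfat minus liver, of the 26 tested members in order of family. Points are fitted values, bars are standard errors and dashed lines mark the fold threshold of the calls. The 4 SFRP genes and DKK2 lie to the right, FZD5, WNT9B and WNT7B to the left. WNT7B had no count in backfat, so its fitted value is not a bound.

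The study asks about CpG methylation, so the sequence just before the gene start is shown for the called member with the highest level per exon base in each family and tissue, with CpG dinucleotides in capitals. The windows are the 250 bases before the start of the RefSeq gene model on Sscrofa11.1, written 5′ to 3′ on the strand of the gene. Gene models whose coding sequence starts fewer than 30 bases inside the model were left out, which removed 5 of the 36 members (WNT3, FZD2, FZD4, FZD8 and DKK1) and left no window for a frizzled gene called in backfat. WNT5B lies at chr5:68626908-68627157 (plus strand), WNT9B at chr12:17708796-17709045 (plus), FZD5 at chr15:110921389-110921638 (minus), SFRP1 at chr17:10489774-10490023 (minus) and DKK2 at chr8:114861806-114862055 (plus).
WNT5B: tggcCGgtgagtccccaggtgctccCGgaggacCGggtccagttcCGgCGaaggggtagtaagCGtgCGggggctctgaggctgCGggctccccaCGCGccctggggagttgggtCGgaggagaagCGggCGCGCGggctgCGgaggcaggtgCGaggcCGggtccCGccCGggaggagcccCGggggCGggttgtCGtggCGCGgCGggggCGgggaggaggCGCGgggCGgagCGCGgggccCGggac
WNT9B: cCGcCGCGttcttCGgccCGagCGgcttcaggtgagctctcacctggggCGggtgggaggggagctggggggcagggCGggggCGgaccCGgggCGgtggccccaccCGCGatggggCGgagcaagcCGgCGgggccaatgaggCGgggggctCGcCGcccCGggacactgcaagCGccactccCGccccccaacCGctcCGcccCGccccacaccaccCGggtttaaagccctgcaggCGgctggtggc
FZD5: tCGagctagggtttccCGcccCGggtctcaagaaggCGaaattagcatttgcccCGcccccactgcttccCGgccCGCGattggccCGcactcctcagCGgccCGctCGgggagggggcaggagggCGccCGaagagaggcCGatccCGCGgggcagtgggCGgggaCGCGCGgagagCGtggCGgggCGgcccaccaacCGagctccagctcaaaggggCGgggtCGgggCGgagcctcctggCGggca
SFRP1: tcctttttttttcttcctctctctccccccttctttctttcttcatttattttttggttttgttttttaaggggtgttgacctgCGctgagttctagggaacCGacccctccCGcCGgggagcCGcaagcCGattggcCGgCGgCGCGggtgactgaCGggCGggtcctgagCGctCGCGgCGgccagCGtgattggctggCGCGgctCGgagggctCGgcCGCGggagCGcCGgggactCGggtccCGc
DKK2: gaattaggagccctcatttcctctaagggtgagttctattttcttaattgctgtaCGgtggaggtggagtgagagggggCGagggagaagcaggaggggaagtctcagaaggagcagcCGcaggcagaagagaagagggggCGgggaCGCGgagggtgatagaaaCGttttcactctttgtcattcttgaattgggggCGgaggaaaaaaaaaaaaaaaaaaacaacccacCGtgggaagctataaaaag

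WNT5B had 33 CpG sites in this window, FZD5 had 29, WNT9B and SFRP1 had 27 each and DKK2 had 9. Over 16645 windows of the annotation the median was 13, with quartiles of 5 and 22. The 31 members with a window had a median of 19 CpG sites, between 0 and 42, and 21 of them lay above the median of all windows. CpG number did not separate the tissues of the calls: the 7 members called in backfat with a window and the 3 called in liver both had a median of 27. None of the 3 DKK windows lay above the median of all windows, and their counts were 6, 8 and 9. On either strand, the letters TATAAA were found in 8.78% of all windows and in 4 of the members, DKK2 among them, and CTTTGA in 10.3% of all windows and in 2 of the members, FZD5 among them. The coding sequence starts 91478 bases inside the gene model for WNT5B, 11625 for WNT10B and 10489 for FZD3. For the other printed genes it starts at 59 (WNT9B), 217 (SFRP1), 758 (DKK2) and 1201 bases (FZD5). A window at the end of a long model may not be the promoter used in these tissues. The methylation of these windows was not analysed here.

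WNT5B (ENSSSCG00000000759, on chromosome 5), a ligand known mostly for signalling without beta-catenin, led the 18 Wnt genes in both tissues and was higher in backfat. Its levels were 40.4, 38.6, 48.0, 44.9 and 40.1 CPM in backfat. In liver they were 5.09, 6.16, 4.91, 8.12 and 5.24 CPM. The groups were far apart and the 5 backfat libraries lay within a 1.24-fold range. The means were 42.4 ± 3.91 and 5.90 ± 1.33 CPM, with a log2 fold change of 2.85 (SE 0.18, 7.19-fold, FDR 7.05e-08). Counted per exon base, WNT5B made up 71.8% of the transcripts of these 18 genes in backfat (68.3% to 76.2%) and 38.0% in liver (29.3% to 50.2%). WNT4 is not in these sums.

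WNT11, another ligand of the pathway without beta-catenin, measured 8.89, 7.63, 8.23, 5.50 and 5.23 CPM in backfat. The liver libraries held 2.57, 0.837, 0.191, 0.663 and 0.542 CPM. The lowest backfat library was above the highest liver library, which was liver 65. The log2 fold change was 2.88 (SE 0.55, FDR 0.00068), between 7.09 ± 1.64 and 0.961 ± 0.929 CPM. Without liver 65 it was 3.69 (FDR 2.08e-05).

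WNT3, a ligand known to act through beta-catenin, was low in both tissues, at 0.711, 0.976, 1.36, 0.775 and 0.789 CPM in backfat. Liver held 0.0249, 0.27, 0.0849, 0.19 and 0.0814 CPM. The groups did not overlap, and WNT3 was called higher in backfat (log2 fold change 2.83, SE 0.52, FDR 0.000511). Neither WNT3, WNT11 nor FZD2 passed edgeR's glmTreat, which tests against the fold threshold itself (FDR 0.108, 0.102 and 0.228).

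WNT9B (ENSSSCG00000035524), a ligand that endothelial cells of the liver are known to make, was 1 of the 2 Wnt genes called higher in liver. The backfat libraries held 0.361, 0.488, 0.404, 0.667 and 0.515 CPM. In liver its levels were 4.44, 5.05, 3.02, 2.31 and 4.37 CPM. Every liver library was above every backfat library, and the log2 fold change was -2.98 (SE 0.32, 7.87-fold, FDR 7.21e-06). Liver 67 had the highest level of WNT9B, although its hepatocyte marker sum was the lowest.

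WNT9B and WNT3 are neighbours on chromosome 12. WNT3 lies at chr12:17627291-17681197 on the minus strand and WNT9B at chr12:17709046-17733434 on the plus strand, 27848 bases apart and pointing away from each other. They were called in opposite directions. The similar pair on chromosome 2, WNT9A and WNT3A, lies 25631 bases apart, and there WNT9A was measured in both tissues while WNT3A had at most 1 count in any library.

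WNT2, a ligand also known from endothelial cells of the liver, measured 0.35, 2.03, 2.52, 0.595 and 0.515 CPM in backfat. Liver held 4.69, 3.02, 4.78, 1.67 and 3.15 CPM. The groups overlapped, since backfat 67 and backfat 69 were above liver 71, but liver was higher in 5 of 5 boars. The log2 fold change of -1.53 (SE 0.55, FDR 0.0326) passed the FDR and not the fold threshold. This outcome depended on single libraries: the FDR was 0.0623, 0.0749 and 0.0727 without backfat 65, 71 or 72, and 0.0679 and 0.0657 without liver 65 or 69. With library totals alone the log2 fold change was -0.88 (FDR 0.191). Without both backfat 69 and liver 67, a setting chosen after the data were seen, it was -2.04 (FDR 0.0112) and would be called. The markers of liver sinusoidal endothelium, 5 of 8 of which were matched, summed to 285 to 530 CPM in liver and 128 to 354 in backfat. On this scale of library totals, the sums overlap through STAB1, at 146 to 341 CPM in liver and 110 to 345 in backfat. CLEC4G held 130 to 226 CPM in liver and at most 0.412 in backfat, and OIT3 4.01 to 38.0 and at most 0.21. LYVE1 and CLEC1B overlapped between the tissues. Whether sinusoidal endothelial cells account for WNT2 and WNT9B was not tested.

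WNT7B, a ligand of epithelial tissues, had no count in any backfat library. Liver held 0.249, 1.22, 0.658, 0.411 and 0.407 CPM, from 114 counts in all. When backfat was set to a floor of 3 counts over the group, the level was at least 64.6-fold higher in liver, counting error only (FDR 0.000103). The highest value was in liver 67, which also had the highest sum of 5 matched cholangiocyte markers, 81.7 CPM against 32.5 to 59.7 in the other liver libraries and 5.73 to 29.2 in backfat. That sum was raised mainly by KRT7, at 32.2 CPM against 7.03 to 11.5 in the other liver libraries, and SPP1, at 29.3 against 9.59 to 26.7. SOX9 was at 6.94 against 5.04 to 6.10. By library totals, EPCAM and CFTR lay within the range of the other liver libraries. The part of cholangiocytes in the result was not tested.

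WNT9A measured 8.99, 5.51, 7.37, 5.605 and 5.76 CPM in backfat. Its liver levels were 3.49, 1.08, 3.21, 2.43 and 2.77 CPM. All backfat libraries were above all liver libraries, but the difference stayed under the fold threshold (log2 fold change 1.35, SE 0.31, FDR 0.00261). When libraries were scaled by their totals alone, it was 2.04.

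WNT5A, which signals through ROR2 among other receptors, varied widely within each tissue. Backfat held 8.81, 4.52, 11.8, 7.66 and 5.90 CPM. Liver held 5.09, 0.675, 7.47, 1.86 and 2.47 CPM, an 11.07-fold range. Backfat was higher in 5 of 5 boars, yet the groups overlapped and the difference did not pass the test (log2 fold change 1.13, SE 0.52, FDR 0.0806). With the boar as a block it passed the FDR (1.46, FDR 0.00641), as it did by limma-voom (1.44, FDR 0.0277), with library totals alone (1.75, FDR 0.0152) and without liver 69 (1.61, FDR 0.017), in each case under the fold threshold.

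WNT2B was close in level between the tissues, at 4.67, 5.35, 5.13, 3.35 and 4.19 CPM in backfat. In liver it measured 5.54, 3.59, 5.18, 6.26 and 5.89 CPM. The groups overlapped and the log2 fold change was -0.22 (SE 0.23, FDR 0.433). The direction turned, to 0.50, when libraries were scaled by their totals alone.

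Of the remaining Wnt genes, only WNT10B was tested, at 0.653 ± 0.199 CPM in backfat and 0.614 ± 0.433 in liver (log2 fold change 0.10, SE 0.52, FDR 0.888). Its RefSeq gene model, introns included, overlaps that of WNT1 by 3322 bases on the other strand, and the counting did not use strand. Whether the Ensembl exons used for counting overlap was not examined. WNT1, WNT3A, WNT6, WNT7A, WNT8A, WNT8B, WNT10A and WNT16 did not pass the filter. Of these WNT1, WNT3A and WNT8A had at most 1 count in any library. WNT10A had 9 counts in backfat and 0 in liver. WNT6, WNT7A, WNT8B and WNT16 had between 0.0153 and 1.36 CPM in the backfat libraries and at most 0.434 CPM in liver. WNT6 was the highest of them, at 0.259, 1.04, 1.36, 0.433 and 0.0858 CPM in backfat against 0.0249 to 0.284 in liver, and its groups overlapped. Outside the main filter WNT6 was called higher in backfat by DESeq2 (2.56, FDR 0.00399) and by edgeR with genes of at least 1 count retained (2.64, FDR 0.0151). DESeq2 also called WNT8B (2.42, FDR 0.0421), and edgeR without the filter called WNT10A (FDR 0.0306) on its 9 counts.

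**Figure D2:**
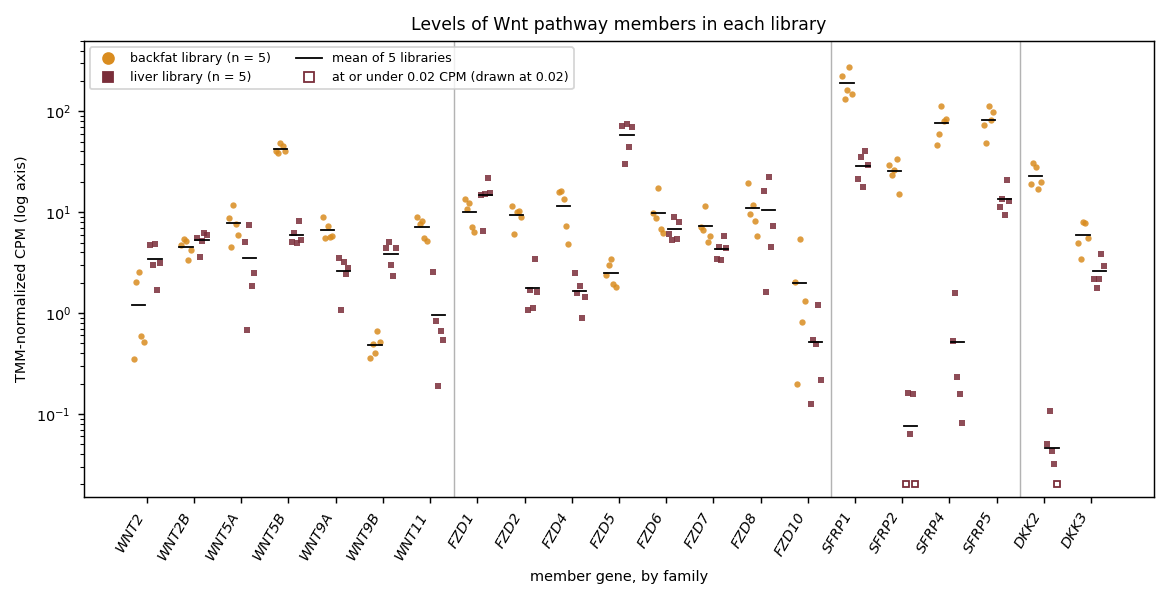
TMM-normalized CPM, on a log axis, of the 21 members with a mean of at least 1 CPM in either tissue. Points are libraries (5 per tissue), short lines are means and open squares stand for libraries at or under 0.02 CPM. Backfat and liver libraries are widely separated for WNT5B, FZD5, SFRP2, SFRP4 and DKK2, and they overlap for WNT2B, FZD1, FZD6 and FZD8.

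The composition of the Wnt family also differed between the tissues when counted per exon base. After WNT5B, backfat held mostly WNT11 (9.50%), WNT9A (6.73%) and WNT5A (4.32%). Liver was more mixed, with WNT2B (12.7%), WNT9B (11.6%), WNT9A (9.89%), WNT2 (8.45%) and WNT5A (7.46%) after WNT5B. The ranges of these 5 overlapped in liver, so their order is not certain. The summed level of the 18 genes was 61.6 to 95.7 TPM in backfat and 5.95 to 15.1 in liver. TPM are counts per exon base scaled to the same total in each library, without TMM factors. Differences between tissues in TPM are therefore not those of the fold changes. WNT5B was at 55.2 and 3.58 TPM in backfat and liver, a wider contrast than its 42.4 and 5.90 CPM. The lowest liver sum of each of the 4 families was that of liver 67, where mitochondrial genes held 44.5% of counts.

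FZD5 (ENSSSCG00000016140, on chromosome 15), a receptor for several Wnt ligands, was the only frizzled gene called higher in liver. Backfat held 2.36, 3.01, 3.40, 1.95 and 1.80 CPM. Liver held 71.7, 29.97, 74.2, 43.9 and 69.1 CPM. The lowest liver library, liver 67, was still far above every backfat library, and the difference was 23.1-fold (log2 fold change -4.53, SE 0.31, FDR 1.36e-07). Liver 67 was also the lowest liver library for hepatocyte markers. Whether the 2 are related was not tested.

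FZD2, a receptor known for WNT5A signalling, went the other way, with 11.5, 6.03, 10.04, 10.3 and 9.02 CPM in backfat. The liver libraries held 1.07, 1.67, 1.13, 3.41 and 1.63 CPM. The groups did not overlap (9.37 ± 2.06 against 1.78 ± 0.952 CPM, log2 fold change 2.40, SE 0.34, FDR 7.02e-05).

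FZD4, which is highly expressed in blood vessels and also binds norrin, measured 15.7, 16.1, 13.4, 7.26 and 4.84 CPM in backfat. In liver it measured 2.52, 1.59, 1.87, 0.885 and 1.44 CPM. No backfat library was as low as a liver library, and the log2 fold change was 2.78 (SE 0.39, 6.87-fold, FDR 5.84e-05). The 6 matched endothelial markers summed to 902 to 1805 CPM in backfat, highest in 69 and lowest in 72, and to 112 to 201 in liver. Their part in the result was not tested.

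The other frizzled receptors differed less. FZD1 measured 13.6, 10.8, 12.2, 7.17 and 6.30 CPM in backfat and 14.8, 6.45, 15.2, 21.7 and 15.5 in liver. The groups overlapped (log2 fold change -0.55, SE 0.31, FDR 0.145), and scaling by library totals alone turned the direction, to 0.19. Without liver 67 the difference was -0.78 (FDR 0.016). FZD6 measured 9.86, 8.73, 17.5, 6.78 and 6.21 CPM in backfat and 6.08, 5.35, 8.88, 5.40 and 8.002 in liver. The FZD6 groups overlapped as well (log2 fold change 0.54, SE 0.29, FDR 0.137), and with library totals alone the difference was 1.24 (FDR 0.00489).

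FZD7 measured 7.15, 6.68, 11.4, 5.05 and 5.76 CPM in backfat. Liver held 3.47, 4.51, 3.33, 5.81 and 4.42 CPM. Only liver 71 reached into the range of backfat, and the difference of 0.74 on the log2 scale (SE 0.27, FDR 0.0309) passed the FDR alone. It no longer did with the boar as a block (FDR 0.0788), without backfat 65 or 69 (FDR 0.0508 and 0.0889), or without liver 65, 69 or 72 (FDR 0.063, 0.069 and 0.064).

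FZD8 varied most within the liver among the receptors with at least 1 CPM. Its backfat levels were 19.6, 9.63, 11.8, 8.22 and 5.75 CPM. The liver levels were 16.2, 1.62, 22.5, 4.55 and 7.35 CPM, a 13.9-fold range. The means were 10.996 ± 5.29 and 10.4 ± 8.67 CPM and no difference was detected (log2 fold change 0.07, SE 0.57, FDR 0.923). The order of liver libraries, with 69 and 65 highest and 67 lowest, was also that of WNT5A, with 71 the second lowest in both. The summed markers of hepatic stellate cells were 247, 157, 235, 166 and 213 CPM by library totals. Lacking TMM factors, their order cannot be set directly against that of FZD8. These markers also did not move together: in liver 67 DES was highest (37.6 CPM) and LRAT lowest (2.28 CPM) of the liver libraries. Their part in the spread was not tested.

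FZD10 differed between animals of 1 tissue, with 2.02, 0.198, 5.47, 0.811 and 1.32 CPM in backfat, a 27.6-fold range. Liver held 0.125, 0.54, 0.488, 1.20 and 0.217 CPM. The groups overlapped and the log2 fold change of 1.94 (SE 0.79, FDR 0.0532) missed both thresholds. It would be called without backfat 67 (2.24), without backfat 71 (2.15) or without liver 71 (2.46), and without backfat 69 it was 1.10 (FDR 0.212), so 1 library decides this call. FZD3 (0.335 ± 0.0743 in backfat, 0.704 ± 0.208 CPM in liver) and FZD9 (0.379 ± 0.140 and 0.103 ± 0.0722 CPM) passed the FDR and not the fold threshold, with log2 fold changes of -1.07 (FDR 0.0183) and 1.88 (FDR 0.00821). FZD3 missed the FDR without backfat 65 (0.0512), without the filter (0.0696) and with library totals alone (-0.38, FDR 0.401).

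Per exon base, FZD8 (25.1%), FZD1 (23.4%) and FZD2 (23.3%) shared the frizzled family about equally in backfat. In liver FZD1 (33.9%), FZD5 (26.3%) and FZD8 (21.0%) were the largest, with overlapping ranges. FZD5 made up 0.805% to 1.57% of frizzled transcripts in the backfat libraries and 19.6% to 31.2% in the liver libraries. The exon lengths of FZD1, FZD2, FZD8 and FZD10 in the count table were 1695, 1677, 1683 and 1746 bases, against 2365 to 8561 bases for the other frizzled genes. If part of the transcript is missing from these models, both its reads and its bases are left out, so their shares could be too high or too low. The summed level of the receptors was 47.0 to 130 TPM in backfat and 12.1 to 70.5 TPM in liver, where the groups overlapped.

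**Figure D3:**
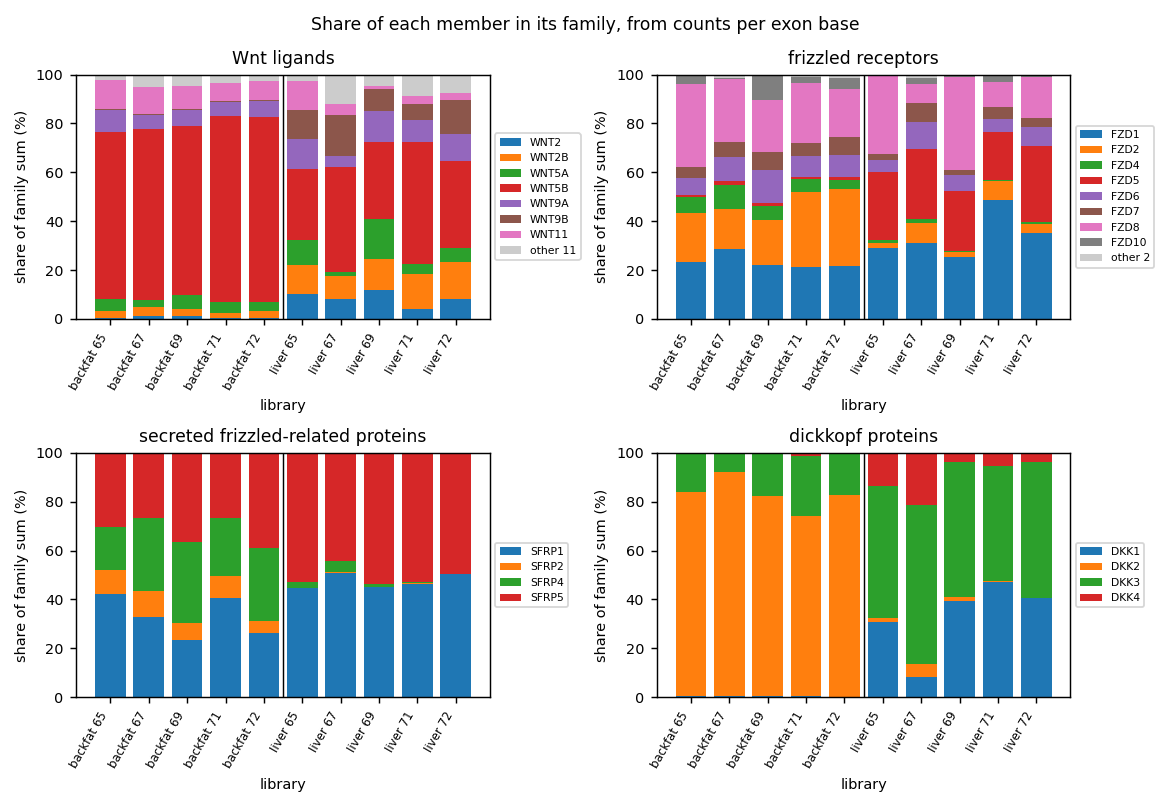
Share of each member in the summed level of its family, in percent, from counts per exon base, for each of the 10 libraries (a vertical line divides backfat from liver). WNT5B fills most of the Wnt bar in backfat, FZD5 appears in liver, SFRP2 and SFRP4 are nearly missing from liver, and DKK2 gives way to DKK3 and DKK1 in liver.

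The SFRP genes, whose products bind Wnt proteins outside the cell, had the highest summed level of the 4 families in backfat, 361 to 514 TPM. In liver their sum was 17.1 to 24.9 TPM, again without TMM factors. All 4 SFRP genes were called higher in backfat and none had overlapping groups.

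SFRP1 (ENSSSCG00000025822, on chromosome 17) measured 225, 133, 162, 277 and 147 CPM in backfat. Liver held 21.5, 34.8, 17.8, 40.8 and 29.2 CPM. Backfat was above liver throughout, by 6.55-fold (189 ± 60.3 against 28.8 ± 9.40 CPM, log2 fold change 2.71, SE 0.29, FDR 5.59e-06).

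SFRP5, which is known as a product of adipose tissue that binds WNT5A, measured 72.4, 48.0, 112, 81.2 and 97.6 CPM in backfat. In liver it measured 11.3, 13.5, 9.43, 20.6 and 12.8 CPM. The highest liver library was below the lowest backfat library, and the difference was 6.08-fold (log2 fold change 2.60, SE 0.27, FDR 4.51e-06).

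SFRP4 and SFRP2 were close to absent from liver. SFRP4 measured 46.5, 59.6, 113, 79.3 and 83.6 CPM in backfat and 0.524, 1.59, 0.234, 0.158 and 0.0814 CPM in liver. The log2 fold change was 7.20 (SE 0.66, FDR 1.75e-06), and the highest liver value was that of liver 67, without which it was 8.18. SFRP2 measured 29.2, 23.5, 26.1, 33.5 and 15.1 CPM in backfat, while liver held 0, 0.162, 0.0637, 0.158 and 0 CPM. The log2 fold change was 8.39 (SE 0.56, FDR 1.24e-07), though so few liver reads leave its size imprecise.

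Per exon base, backfat divided its SFRP transcripts between SFRP1 (33.1%), SFRP5 (31.9%), SFRP4 (26.7%) and SFRP2 (8.24%). In liver, SFRP5 (50.6%) and SFRP1 (47.4%) made up nearly all of a far smaller sum. SFRP1 and SFRP5 had similar shares to each other in both tissues, while SFRP4 and SFRP2 were at 1.74% and 0.21% in liver.

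DKK2 (ENSSSCG00000032094, on chromosome 8), which binds LRP5 and LRP6, showed a contrast of the same kind, with 19.1, 31.0, 28.1, 16.9 and 19.9 CPM in backfat. Liver held 0.0499, 0.108, 0.0425, 0.0316 and 0 CPM. The groups were far apart, and the log2 fold change of 8.87 (SE 0.43, FDR 1.26e-08) was the largest toward backfat among the 26 members.

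DKK3, a divergent family member that is not known to bind LRP6, measured 4.99, 3.45, 8.07, 7.88 and 5.56 CPM in backfat. Its liver levels were 2.17, 1.76, 2.19, 3.89 and 2.96 CPM. Backfat was higher in 5 of 5 boars, though liver 71 was above backfat 67, and the difference passed the FDR alone (log2 fold change 1.21, SE 0.31, FDR 0.00509).

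DKK1, the best-known inhibitor of LRP6, went the other way but was too low for the filter on counts. Backfat held 0.0677, 0.061, 0.0841, 0.036 and 0.0343 CPM and liver 0.449, 0.081, 0.573, 1.42 and 0.787 CPM. Liver was higher in 5 of 5 boars, and the groups overlapped only through liver 67. With genes of at least 1 count retained, its log2 fold change was -3.42 (FDR 0.000835), and DESeq2 gave -3.56 (FDR 1.15e-06). DKK4 had at most 3 counts in any library. Per exon base, DKK2 made up 82.7% of dickkopf transcripts in backfat, whereas in liver DKK3 made up 55.4% and DKK1 33.2% of a sum of 0.554 to 1.82 TPM.

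Markers of other cell types differed between the tissues as well. The 8 markers of adipose stromal cells and fibroblasts summed to 45318 to 80890 CPM in backfat and 548 to 793 in liver, and 7 of them were called higher in backfat. Most of that backfat sum was COL1A1 (15983 to 35795 CPM) and COL3A1 (26320 to 41354 CPM). The 7 markers of smooth muscle and pericytes summed to 1027 to 1453 CPM and 165 to 320 CPM. Of these, 2 were called higher in backfat and none higher in liver, and CNN1 overlapped between the tissues. These sums separate the tissues as the SFRP genes and DKK2 do, and their part in those results was not tested. The 2 matched markers of mesothelium did not exceed 0.614 CPM in any library. Macrophage markers (5 matched) summed to 183 to 363 CPM in backfat and 572 to 984 in liver. Of these, CD14 held 31.3 to 49.4 CPM in backfat and 287 to 750 in liver, and MARCO was also higher in every liver library. By library totals, CD68, CD163 and CSF1R overlapped between the tissues. Lymphocyte markers summed to 16.9 to 53.4 CPM in backfat and 15.6 to 40.1 in liver, and skin epithelium markers (4 matched) to 7.55 to 9.63 and 5.61 to 9.87. Red cell markers (4 matched) summed to 135 to 590 CPM in backfat.

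The genes around the ligands and receptors were then described from lists of the pathway. Of 87 genes, 82 were matched by symbol and 77 were tested. Of these 12 were called higher in backfat and 15 higher in liver, beside the 11.1% and 11.2% of all genes tested, and their median log2 fold change was 0.53. Scaling by library totals alone gave 21 and 12. The counts of each list below also stand beside these shares of 11.1% and 11.2%.

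**Figure D4:**
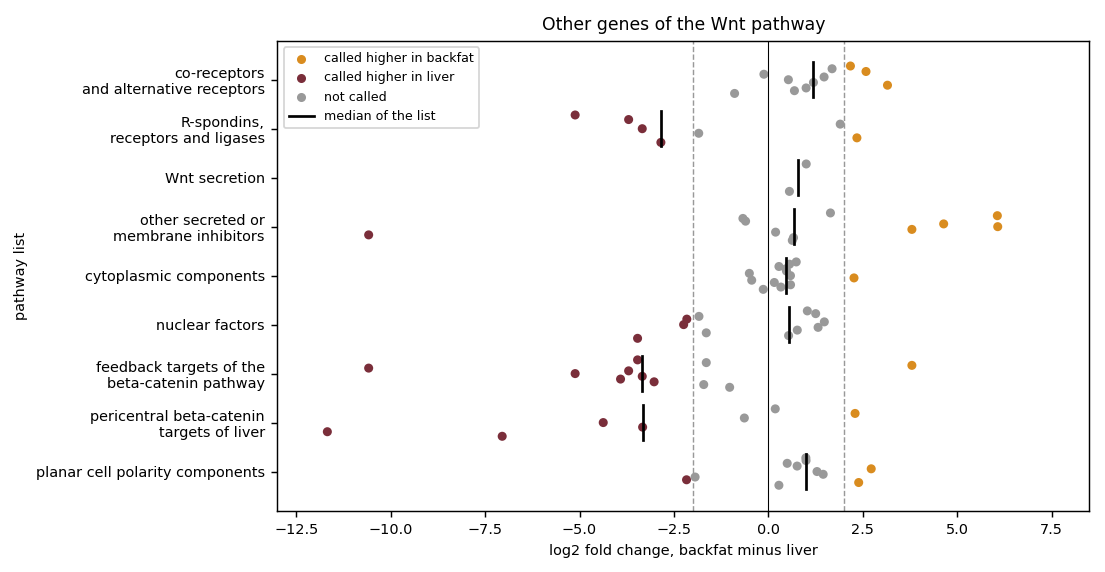
Log2 fold change, backfat minus liver, of the tested genes of 9 lists of the Wnt pathway. Each point is a gene, black bars are medians and dashed lines mark the fold threshold. Some genes stand in more than 1 list. The R-spondin, feedback target and pericentral lists have their medians on the liver side, and the medians of the other 6 lists lie between 0.46 and 1.19.

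Ligand secretion differed modestly. WLS, which carries Wnt proteins to the cell surface, was at 18.2 ± 2.22 CPM in backfat and 9.06 ± 1.70 in liver (log2 fold change 1.00, FDR 0.000358), and neither of the 2 secretion genes was called.

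Among 11 tested co-receptors and alternative receptors, 3 were called higher in backfat and none higher in liver (at FDR alone, 8 and 1). ROR2, the receptor kinase for WNT5A, was at 8.07 ± 1.38 and 0.908 ± 0.225 CPM (log2 fold change 3.15, FDR 6.85e-07). TSPAN12, a partner of FZD4, was at 79.5 ± 10.7 and 13.2 ± 4.66 CPM (2.58, FDR 2.21e-06). ADGRA2, which serves WNT7 signals in vessels, was at 114 ± 11.5 and 25.3 ± 10.6 CPM (2.17, FDR 1.89e-05). The co-receptors LRP5 and LRP6 differed in opposite directions by FDR alone, with LRP5 at 87.2 ± 14.2 and 162 ± 50.7 CPM (-0.89, FDR 0.00694) and LRP6 at 13.8 ± 1.66 and 8.57 ± 3.76 CPM (0.69, FDR 0.0335). Both had overlapping groups.

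R-spondins strengthen Wnt signals by binding LGR receptors, which removes the ligases ZNRF3 and RNF43 that otherwise degrade frizzled receptors. Of 7 genes tested, 1 was called higher in backfat and 4 higher in liver, beside 11.1% and 11.2% of all genes tested. The ligands stood on both sides, and so did the receptors. RSPO3 was at 18.3 ± 3.98 CPM in backfat and 3.61 ± 0.665 in liver (2.34, FDR 1.67e-06). RSPO2 was called higher in liver, at 0.114 ± 0.0598 and 0.824 ± 0.256 CPM (-2.85, FDR 0.000215). LGR5 was at 0.761 ± 0.244 and 7.71 ± 4.01 CPM (-3.34, FDR 4.28e-05) and LGR4 at 17.5 ± 4.32 and 62.7 ± 19.3 CPM (-1.84, FDR 6.39e-05, under the fold threshold), while LGR6 was at 0.379 ± 0.205 and 0.0955 ± 0.0823 CPM (1.90, FDR 0.0154, also under it). RSPO2 and LGR6 were named after their values were seen. ZNRF3 was at 2.73 ± 0.661 and 35.5 ± 19.4 CPM (-3.70, FDR 9.1e-06), and RNF43 at 0.381 ± 0.145 and 13.3 ± 9.07 CPM (-5.12, FDR 1.08e-05).

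The list of secreted and membrane inhibitors outside the SFRP and DKK families also holds 2 genes that are not plain inhibitors, CTHRC1 and the norrin gene NDP. Of its 11 tested genes, 4 were called higher in backfat, CTHRC1 among them, and 1 higher in liver. NOTUM, which removes the lipid from Wnt proteins, was that gene, at 0.0715 ± 0.056 CPM in backfat and 109 ± 41.8 in liver (log2 fold change -10.58, FDR 1.73e-08). APCDD1, a membrane inhibitor, was at 116 ± 30.2 and 8.33 ± 1.24 CPM (3.80, FDR 5.31e-08). TRABD2B, a protease that cleaves Wnt proteins, was at 14.4 ± 3.09 and 0.575 ± 0.126 CPM (4.64, FDR 2.81e-08), and CTHRC1, a secreted protein that favours signalling through ROR2, at 18.0 ± 4.90 and 0.272 ± 0.153 CPM (6.06, FDR 2.64e-07). FRZB, a relative of the SFRP genes outside the naming rule, was not called (14.4 ± 1.95 and 9.27 ± 5.05 CPM, 0.63, FDR 0.138), nor was WIF1 (0.945 ± 0.0783 and 0.595 ± 0.329 CPM, 0.67, FDR 0.148).

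Of 13 cytoplasmic components 1 was called, APC2, at 4.27 ± 3.58 and 0.878 ± 0.866 CPM (2.27, FDR 0.0163) with overlapping groups. CTNNB1, which encodes beta-catenin, was at 152 ± 22.7 and 110 ± 55.1 CPM (0.46, FDR 0.22). Of 11 nuclear factors none was called higher in backfat and 3 were higher in liver. These were the corepressor TLE1 (22.3 ± 2.91 and 99.9 ± 12.5 CPM, -2.16, FDR 2.05e-07), the DNA-binding factor TCF7 (1.22 ± 0.401 and 13.6 ± 2.85 CPM, -3.46, FDR 5.25e-07) and PYGO1 (2.31 ± 0.402 and 10.96 ± 7.46 CPM, -2.24, FDR 0.000463).

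Genes known as feedback targets of beta-catenin were called higher in liver for 7 of 11 genes and higher in backfat for 1, APCDD1. The list shares APCDD1, LGR5, RNF43, ZNRF3, NOTUM, LEF1 and TCF7 with the lists above. Of these LEF1 was not called (-1.64, FDR 0.00162, under the fold threshold). TNFRSF19 was called higher in liver besides (1.21 ± 0.467 and 18.3 ± 5.70 CPM, -3.91, FDR 1.26e-06). So was SP5, named after its values were seen (0.467 ± 0.410 and 3.81 ± 1.73 CPM, -3.03, FDR 0.000565). AXIN2, the most widely used of these targets, did not pass the test, at 7.83 ± 5.11 CPM in backfat and 15.9 ± 10.9 in liver (-1.03, FDR 0.0904), although liver was higher in 5 of 5 boars. Of 7 tested pericentral targets of liver 4 were called higher in liver, among them CYP2E1 (12.8 ± 2.81 and 1689 ± 660 CPM, -7.05, FDR 7.95e-08), CYP1A2 (-11.68, FDR 4.07e-07) and the ammonium transporter RHBG (6.41 ± 1.73 and 64.4 ± 14.7 CPM, -3.33, FDR 2.37e-07). OAT, an enzyme of ornithine breakdown, was called higher in backfat (117 ± 11.1 and 23.7 ± 6.67 CPM, 2.30, FDR 8.54e-07). CYP2E1 and CYP1A2 are hepatocyte genes, and the hepatocyte markers separate the tissues in the same way. Their part in these differences was not tested.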

How the data were processed

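RNA was sequenced from backfat and liver of 5 boars, 10 libraries in all. The authors trimmed reads with Trimmomatic after FastQC, aligned them with HISAT2 to Sscrofa11.1 and counted them per gene, without strand, with featureCounts 2.0.1 and Ensembl release 99. The deposited values are raw counts per gene, with an exon length per gene that the authors' counting wrote beside them. The bisulfite data deposited with them carry no genomic position and were not used here. No value column was left unmapped to a tissue (0 columns).

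Counts were fitted with edgeR 4.0.16 in R 4.3.3 over the whole table. Genes were filtered by filterByExpr, scaled by TMM and tested with tissue as the only term (glmQLFit, glmQLFTest), with Benjamini-Hochberg adjustment over 16275 genes. The F statistic and the log2 fold change gave the standard error. TPM and shares of a family were calculated from counts per exon base. Floors of 3 counts cover counting error only. The alternatives were other scalings, filters and tests (DESeq2 1.42.0, voom of limma 3.58.1, glmTreat), the boar as a block and each library left out. The settings without mitochondrial genes, and without backfat 69 and liver 67, were added after the data were seen. The fits were tested on simulated counts. Figures were drawn in Python 3.11.15 with matplotlib 3.10.9.

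The columns of both tissues carry the same 5 animal numbers, and they were paired by these numbers. Deviations from the tissue means correlated by 0.24, 0.11, 0.05, 0.16 and 0.10 within boars 65, 67, 69, 71 and 72. Backfat 65, 67, 71 and 72 correlated best with the liver library of the same number, but backfat 69 correlated best with liver 72. No 2 libraries agreed within sampling noise.

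Members and lists were chosen with earlier results of these data known. Members with a mean of at least 1 CPM in either tissue were given in full and the others by range, or by name where called. Pathway genes were named where called, up to 3 per list and direction by level, plus a fixed set. Of the fixed set GLUL was not matched and is not analysed here. Symbols were taken from the reference table, which names 15029 of 31907 genes, and positions from RefSeq on Sscrofa11.1 by symbol.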

Additional observations from a re-analysis of the deposited data

Results flagged for a closer look

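In 42 groups of 5 libraries, the 21 members given in full in each tissue, a library was set apart when its gap to the nearest of the others, divided by the range of the 5, exceeded Dixon's critical value of 0.71. Chance sets apart about 5% of groups, and 2 were found. WNT11 in liver 65 was at 2.57 CPM, where the other liver libraries held 0.191 to 0.837 CPM. FZD2 in liver 71 was at 3.41 CPM, where the others held 1.07 to 1.67 CPM. Without liver 65 the log2 fold change of WNT11 was 3.69 against 2.88 with it. Both genes were called higher in backfat in the fits without these libraries too.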

How the results depend on the processing

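The 13 calls among the members were kept under the other scalings, DESeq2, limma-voom, the fit without mitochondrial genes and every fit that left out 1 library. The exceptions were glmTreat, which lost WNT3, WNT11 and FZD2, and a filter of at least 10 counts in every library, which left DKK2, SFRP2, SFRP4, WNT3, WNT7B and WNT11 untested and 5 members called higher in backfat. Leaving out 1 library gave 10 to 13 members called in backfat and 3 to 4 in liver, and 11 to 13 and 15 to 16 of the other pathway genes. Without backfat 69 and liver 67, 5 members were called in liver, DKK1 and WNT2 being added. With the boar as a block, 10 and 3 members and 13 and 15 pathway genes were called, so the pairing changed no call among the members, although WNT5A then passed the FDR and FZD7 did not. The pathway genes called in backfat were 21 with library totals alone and 7 with glmTreat. Scaling by totals alone moved the median of all genes by 0.71 toward backfat on the log2 scale. It turned the direction of WNT2B (0.50) and FZD1 (0.19), which were not called. Leaving out 1 library gave log2 fold changes between -0.24 and 0.56 for FZD8 and between -0.14 and 0.48 for WNT10B. FZD8 turned without backfat 65 (-0.24), without liver 67 (-0.24), liver 71 (-0.15) or liver 72 (-0.06) and without both backfat 69 and liver 67 (-0.23). WNT10B turned without backfat 69 (-0.0071), liver 65 (-0.14) or liver 69 (-0.11). The causes were not tested. Depth limits the 10 members under the filter and the size of folds against the near-zero liver levels of SFRP2 and DKK2.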

Other observations

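The libraries at the ends of the ranges were not spread evenly over the boars. Of the 21 members given in full, backfat 69 held the highest backfat value for 10 and the lowest for none, and backfat 72 held the highest for none and the lowest for 7. In liver, liver 71 held the highest value for 9, among them FZD1, FZD2, SFRP1, SFRP5 and DKK3, and liver 67 the lowest for 8, among them WNT5A, FZD5 and FZD8. By library totals alone, without TMM factors, liver 71 held the highest value for 8 and liver 67 the lowest for 7, and backfat 69 the highest for 10. Members are not independent of each other, so these counts describe the libraries and carry no test.

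The planar cell polarity proteins, which orient cells within a tissue and act downstream of some frizzled receptors, were among the lists of the pathway. Of 11 tested genes, 2 were called in backfat and 1 in liver, a share near the 11.1% and 11.2% of all genes tested, and the median log2 fold change was 0.99. PRICKLE2 was at 24.6 ± 6.92 CPM in backfat and 3.73 ± 0.927 in liver (2.72, FDR 1.54e-06). VANGL2 was at 1.32 ± 0.805 and 0.247 ± 0.130 CPM (2.39, FDR 0.00168). CELSR1, an adhesion protein of the same system, was at 8.93 ± 1.63 and 40.1 ± 9.27 CPM (-2.17, FDR 2.39e-06).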
